A study of Mus musculus with 3 samples.

Results

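Cells in which a motor neuron reporter was brightest, GFP high, were compared with cells that lacked it, GFP negative, both sorted from differentiated mouse embryonic stem cell cultures. The comparison took every gene that was detected, at a detection p-value under 0.01, on at least 1 of the 2 arrays: 8613 of 16593 genes with a probe. The stem cells carried a Hb9-GFP transgene, in which green fluorescent protein reports on Hb9, the protein encoded by Mnx1. Per the labels, they were grown on feeder cells in serum and taken as embryoid bodies through retinoic acid and purmorphamine, a small molecule that activates the Hedgehog pathway. All groups share that line and that treatment. The only difference between them that the labels give is the sort gate: GFP low, GFP negative, and GFP high, labelled as motor neurons. There was 1 array per gate, so differences are given as sizes with no test and no p-value, and GFP low values are shown beside them. Whether a gate holds 1 culture or a pool is not given in the sources used here.

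In the embryo, retinoic acid gives neural cells a spinal character and Hedgehog signalling gives them a ventral one. Ventral progenitors that express Olig2 leave the cell cycle and become motor neurons, which switch on Mnx1, Isl1 and Lhx3 and then the genes for acetylcholine transmission. Neighbouring progenitor domains form interneurons with their own homeodomain factors, and cells that have not left the cycle keep Notch signalling and radial glia genes on.

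Signals are background-corrected, quantile normalized and on a log2 scale, and a difference is GFP high minus GFP negative. The arrays were alike in brightness, with 11736, 11727 and 11689 probes detected in GFP high, GFP low and GFP negative cells. A signal near 5.13, the lowest of any detected probe, cannot be told from background. For a gene detected on 1 array alone the filter sets the side, so counts and medians of lists describe the detected genes and support nothing beyond them. A fold written as at least N-fold is a bound, for genes missed on the dimmer array. There the denominator is either the probe's own signal or, where larger, that array's lowest signal among detected probes. In 2314 genes with at least 2 detected probes, the brightest and second probes put the SD of 1 probe's log2 difference at 0.331. That SD covers the choice of probe and no difference between sorts or cultures. Of the 2314 genes, 366 differed by 2-fold or more by the brightest probe. Their second probes pointed the same way for 352 and reached 2-fold that way for only 234. For 0 of them did the second probe reach 2-fold the opposite way. Folds are those of a gene's brightest probe, and where the mean over all its probes, undetected ones included, moves a named gene by over 1.5-fold, that mean or the value of another probe is given as well. In bulk RNA, fewer cells of a type and less RNA per cell cannot be told apart.

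The motor neuron markers followed the sort. Isl1, a LIM homeodomain factor that motor neurons need, had log2 signals of 12.70, 9.29 and 7.14 on arrays of GFP high, GFP low and GFP negative cells. Chat, the enzyme that makes acetylcholine, had 11.35, 6.74 and 5.70 in that order. Mnx1 itself had 7.99, 5.30 and 5.16 in that order. All these markers were brightest in GFP high cells, with GFP low cells between the other gates, although for Mnx1 the GFP low and GFP negative signals lay at the edge of detection. The folds between GFP high and GFP negative were 47.2-fold for Isl1, 50.2-fold for Chat and 7.09-fold for Mnx1, whose GFP negative signal lay near the lowest of any detected probe, so that the size of its fold rests on the background estimate. In GFP negative cells Isl1 was well above background, while Chat and Mnx1 had only 5.70 and 5.16. Whether that gate held motor neurons was not tested.

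A gene called 2-fold or more above, or higher, had the brighter signal in GFP high cells, and one called below, or lower, in GFP negative cells. Over all 8613 genes, 16.9% differed by at least 2-fold, with 6.99% higher and 9.88% lower in GFP high cells. Counts of list members given below are to be read beside these shares. The median log2 difference was 0.02 and 62.1% of genes lay within 1.5-fold. Past 4-fold, the share was 3.24%, made up of 85 higher genes (0.987%) and 194 lower genes (2.25%). Past 8-fold it was 0.569%, made up of 19 higher genes (0.221%) and 30 lower genes (0.348%). Lower genes outnumbered higher genes at each of these sizes. With undetected genes at their bound, 6.11% were higher and 8.65% lower by 2-fold. When genes were ordered by mean signal and cut into 4 equal parts, the dimmest part had 7.47% higher and 11.3% lower genes and the brightest 5.06% and 7.11%.

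**Figure D1:**
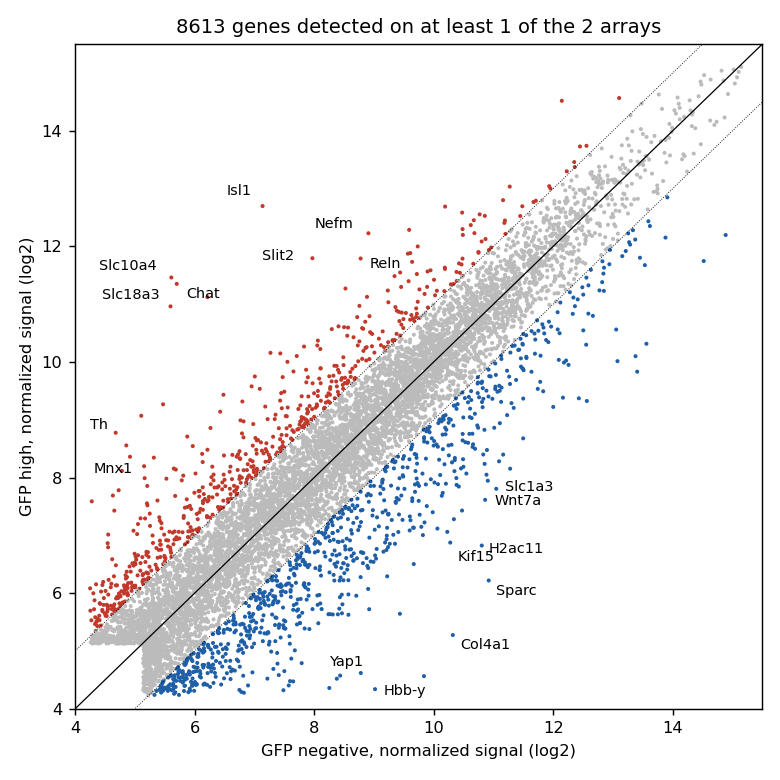
Each point is 1 of 8613 genes, with the normalized log2 signal of GFP negative cells on the x axis and of GFP high cells on the y axis. Red points are 2-fold or more above GFP negative cells and blue points 2-fold or more below them, the dotted lines mark 2-fold, with Chat and Isl1 among the genes farthest above the diagonal and Col4a1 and Sparc among those farthest below it.

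Among the factors and effectors of motor neurons, members of both groups were higher. Among the 18 cholinergic or effector genes that were detected, 13 were 2-fold or more above GFP negative cells, beside 6.99% of all genes tested, or 12 with undetected genes at their bound, and 0 were lower, beside 9.88%, with a median log2 difference of 1.60. Of the 18, 13 were detected on both arrays, where the median was 1.66, and the others in GFP high cells alone, so that the filter fixed their side. Over all 25 such genes with a probe the median was 1.02. The sodium-dependent transporter family member Slc10a4 had log2 signals of 11.46, 6.65 and 5.61 on arrays of GFP high, GFP low and GFP negative cells and was bright in GFP high cells alone. Other detected probes of Slc10a4 and Chat gave log2 differences of 2.37 and 4.29, against 5.85 and 5.65 for the brightest. Receptors for trophic factors belonged to this group: the GDNF family receptor genes Gfra3 and Gfra1 were at least 3.84-fold and at least 2.20-fold higher, the neurotrophin receptor Ngfr 3.46-fold and the receptor tyrosine kinase Ret 2.02-fold. The ligand Gdnf was at least 1.81-fold higher. The nicotinic receptor subunits Chrnb4 and Chrna3, whose genes lie side by side, were 3.16-fold and 2.82-fold higher, and Chrna5, of the same cluster, 2.95-fold. Averaged over all probes, log2 differences were 0.36 and 0.86 for Ret and Gdnf.

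Among transcription factors of motor neurons, 19 were detected, of which 9 were 2-fold or more above, 7 by bounds, and 1 was lower, the median being 0.52. The higher members included Onecut2, a factor of early motor neurons, at 3.73-fold, the zinc finger homeodomain gene Zfhx3 at 2.43-fold and Ebf3 at 2.33-fold. The related genes Ebf1 and Ebf2 had differences of -0.58 and -0.36, so the family did not share a direction. Etv4, an ETS factor that a subset of limb motor neuron pools switches on when their axons reach the limb, was at least 2.20-fold lower.

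Some genes known from spinal interneurons, not all of them particular to these cells, were also brighter on the GFP high array than on the GFP negative array. En1, the homeodomain factor of V1 inhibitory interneurons, had log2 signals of 9.27, 8.37 and 5.47 on arrays of GFP high, GFP low and GFP negative cells. Lhx1, a LIM factor of several spinal neuron types including lateral motor neurons, had 12.69, 12.24 and 10.19 in that order. Slc32a1, which loads GABA and glycine into vesicles, had 12.00, 12.06 and 9.73 in that order. For each of these the GFP low signal lay within 1 log2 unit of the GFP high signal and above the GFP negative signal, unlike Chat. The paired-box genes Pax2 and Pax8, which V1 cells express, were 4.81-fold and 8.15-fold above their GFP negative signals, with another Pax8 probe at a log2 difference of 1.35. The secreted glycoprotein gene Reln was 8.07-fold higher and the peptide gene Sst 4.81-fold. Of 15 detected interneuron factors, 5 were 2-fold or more above and 3 lower, 2 by bounds, the median being 0.00. The lower factors were those of the V2b lineage, Gata2 at 3.01-fold and Tal1 at 2.93-fold, and the V3 progenitor gene Nkx2-2, which was at least 1.88-fold lower. The summed background-corrected signal of 28 interneuron factors with a probe was 10792, 12342 and 5025 in GFP high, low and negative cells. Of the 28 factors, 14, 16 and 14 were detected in that order. Whether the GFP high gate held interneurons was not tested. Gch1, which makes a cofactor of tyrosine hydroxylase, was 5.27-fold lower although Th was at least 12.4-fold higher. The mean over all probes put Pax2 and Nkx2-2 at 1.15 and -0.71.

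**Figure D2:**
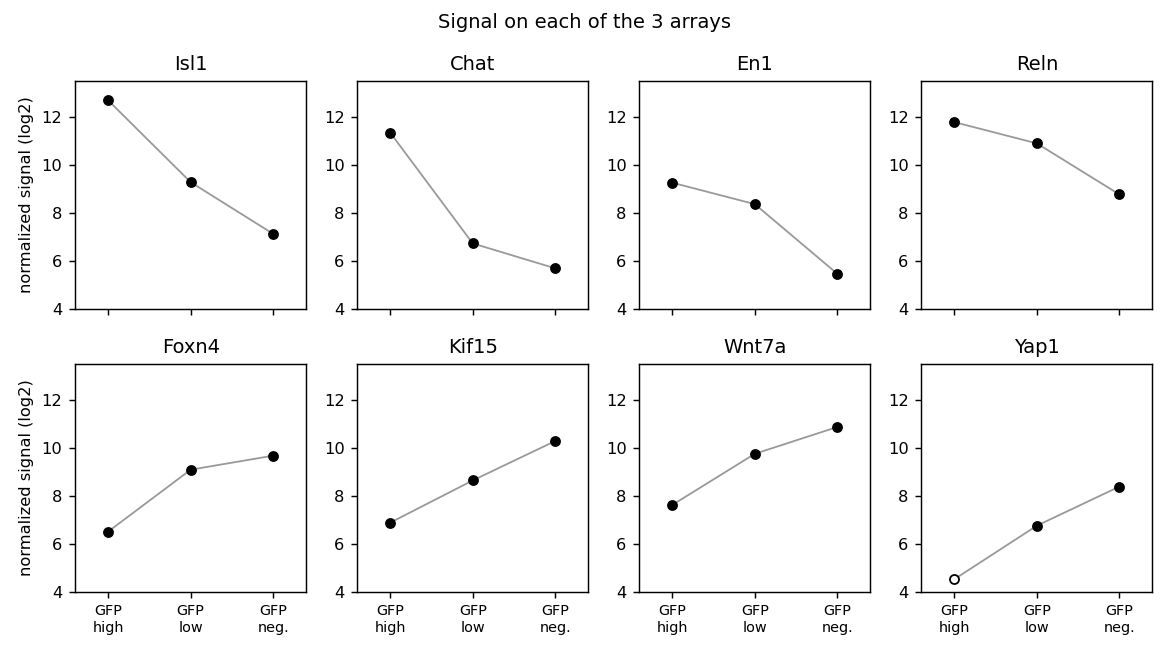
Normalized log2 signal of 8 genes on the GFP high, GFP low and GFP negative arrays, 1 point per array, filled where the probe was detected and open where it was not. Chat stands apart on the GFP high array alone, En1 and Reln in GFP low cells lie within 1 log2 unit of GFP high cells, and Foxn4, Kif15, Wnt7a and Yap1 run the other way.

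Genes for the cytoskeleton of a growing axon were often higher. Microtubules of axons carry proteins that stabilise or sever them, and 16 of 30 detected genes of such proteins and of stathmins were 2-fold or more above GFP negative cells and 1 lower, the median being 1.04. Mapt, which encodes tau, had log2 signals of 10.28, 10.42 and 8.05 on arrays of GFP high, GFP low and GFP negative cells. Its GFP low signal was as bright as its GFP high signal. Mapt was 4.70-fold higher than in GFP negative cells, the collapsin response mediator Crmp1 4.31-fold and Map6 3.74-fold. Map7, a microtubule protein of epithelial cells among others, was the lower member at 3.05-fold. Tubulins divided by isotype: Tubb4a was 5.73-fold higher and Tuba1a, the main alpha tubulin of young neurons, 2.76-fold, whereas Tuba1b, a tubulin of most cells, differed by -0.04. Tubulin genes are close in sequence, and cross-hybridisation of their probes was not checked. Among intermediate filaments, the neuronal genes Nefm and Ina were 9.98-fold and 4.41-fold higher, and the progenitor and epithelial genes Nes, Krt8 and Krt18 were 2.60-fold, 2.57-fold and at least 1.62-fold lower. For Mapt, the mean over all probes was 0.75.

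Several spindle kinesin genes were lower, while most genes for axonal transport stayed under 2-fold. Of 30 detected genes for axonal transport motors and their adaptors, 26 stayed under 2-fold, 23 lay above 0 and 7 below, the median being 0.51. At 2-fold 4 were higher, beside 6.99% of all genes, and 0 lower. The higher ones were the conventional kinesins Kif5a and Kif5c at 3.18-fold and 2.39-fold, the light chain Klc1 at 2.31-fold and Kif3c at 2.14-fold. A second detected probe of Kif5a gave 0.77. Of all 21 detected kinesin genes, 9 were 2-fold or more below, and except for Kif24, a centriole kinesin, these are kinesins of the mitotic spindle or of cytokinesis. Kif15, a spindle kinesin, had log2 signals of 6.88, 8.63 and 10.28 on arrays of GFP high, GFP low and GFP negative cells. It was brightest in GFP negative cells and intermediate in GFP low cells, and averaging its probes gave a log2 difference of -1.09.

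**Figure D3:**
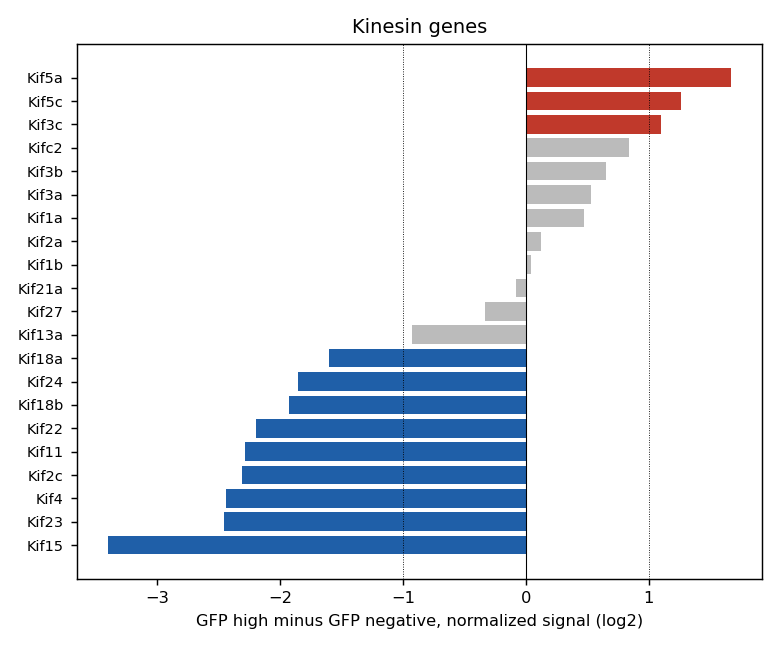
Log2 difference of normalized signal, GFP high minus GFP negative, for the 21 detected kinesin genes, 1 bar per gene starting at 0, with dotted lines at 2-fold. Transport kinesins such as Kif5a, Kif5c and Kif3c are at the top and spindle kinesins such as Kif15, Kif23 and Kif4 at the bottom.

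Secretion and synapse genes were more often higher than lower. Of 33 detected genes of vesicle release, 10 were 2-fold or more above, 9 by bounds, and 4 lower, 2 by bounds, the median being 0.62. Rab3a, a small GTPase of synaptic vesicles, was 3.03-fold higher, Napb, which recycles SNARE complexes, 3.06-fold, and the vesicle glycoprotein Sv2a 2.93-fold. The vesicle protein gene Syngr1 was 3.64-fold lower by its brightest probe, while 2 other detected probes gave -0.29 and 0.87. Of 19 genes of dense-core vesicles, 10 were 2-fold or more above and 2 lower, the median being 1.03. Cadps, which primes these vesicles, was 5.41-fold higher, whereas its relative Cadps2 was 2.75-fold lower. Dnajc6, the neuronal auxilin that uncoats endocytic vesicles, was 6.03-fold higher. Its probes averaged, Cadps2 had a log2 difference of -0.64.

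Among channels and receptors, which make a neuron excitable, detected genes were more often higher than lower. Of 61 voltage-gated channel genes with a probe, 22 were detected, of which 10 were 2-fold or more above, 9 by bounds, and 2 lower, the median being 0.91. Cacna1g, a T-type calcium channel, had log2 signals of 8.14, 6.05 and 5.68 on arrays of GFP high, GFP low and GFP negative cells. The calcium channel subunit Cacna2d3 had 10.15, 9.85 and 7.43 in that order. In GFP low cells Cacna1g lay near its GFP negative signal and Cacna2d3 near its GFP high signal. The 2 were 5.48-fold and 6.56-fold above their GFP negative signals, and the potassium leak channel Kcnk10 was 3.01-fold higher. The related leak channels Kcnk1 and Kcnk5 were 2.54-fold and 7.03-fold lower. Of 15 detected ligand-gated receptor subunits, 7 were 2-fold or more above, 6 by bounds, and 0 lower, the median being 0.87. The neuronal nicotinic subunit Chrnb2 was 4.39-fold higher, the glycine receptor subunit Glra2 at least 9.32-fold, and the AMPA receptor subunit Gria1 at least 1.99-fold. Averaged over all probes, log2 differences were 1.52, -1.30, 1.49 and 0.46 for Cacna1g, Kcnk5, Chrnb2 and Gria1.

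Genes that steer and bind axons included members in both directions. Of 41 detected guidance genes, 10 were 2-fold or more above, 8 by bounds, and 2 lower, the median being 0.35 and the largest measured difference 3.82. The semaphorin ligands Sema3f and Sema6d were 4.45-fold and 2.66-fold higher and the commissural repellent Draxin 2.20-fold, while the plexin receptor Plxna2 and the ephrin receptor Ephb1 were 3.53-fold and 2.47-fold lower. Of 29 adhesion genes, 6 were 2-fold or more above and 0 lower, the median being 0.69 and the largest measured difference 3.06. The presynaptic gene Nrxn3 was 5.45-fold higher, the contactin partner Cntnap2 4.67-fold and Nfasc, of the axon initial segment, 2.67-fold. Versican, the proteoglycan encoded by Vcan, was 6.27-fold higher and Has2, which makes hyaluronan, 5.11-fold. The mean over all probes put Sema3f, Sema6d, Draxin and Nfasc at 1.34, 0.38, 0.47 and 0.54.

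Some clustered protocadherins, which give single neurons an individual surface, were higher. Of 50 clustered protocadherin genes with a probe, 17 were detected, 11 on both arrays and the others in GFP high cells alone, so that the filter fixed the side of the latter. Of the 17, 9 were 2-fold or more above GFP negative cells, 5 by bounds, the median being 1.08, against 0.95 over the 11 detected on both arrays and 0.21 over all 50. Pcdhb10 had log2 signals of 7.25, 6.80 and 5.42 on arrays of GFP high, GFP low and GFP negative cells, and Pcdhb6 6.84, 6.05 and 5.43 in that order. Both were brightest in GFP high and dimmest in GFP negative cells. Pcdhb10 was 3.57-fold and Pcdhb6 2.66-fold higher. The 17 genes were dim, and variable exons of the alpha and gamma genes are joined to shared constant exons, so their probes may not be separate measurements. Cross-hybridisation among the genes of a cluster, the beta genes included, was not checked. Single classical cadherins and protocadherins went both ways, with 5 of 18 being 2-fold or more above, 3 by bounds, 2 lower and a median of 0.30, or -0.05 at a detection p-value under 0.05. Among them Pcdh20 was 2.68-fold and Cdh6 2.52-fold higher and Pcdh17 3.36-fold lower.

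Several RNA regulators that are known from neurons were higher, while chromatin genes differed about as often as all genes. Of 28 RNA-binding and splicing genes, 9 were 2-fold or more above, 8 by bounds, and 1 lower, the median being 0.64. The splicing factors Rbfox1, Rbfox3 and Rbfox2 were 5.25-fold, 3.18-fold and 3.15-fold higher, the neuronal Hu protein gene Elavl4 3.58-fold, and the ubiquitous family member Elavl1 2.42-fold lower. Ptbp1, which represses neuronal exons in dividing cells, differed by -0.86. In the BAF chromatin remodelling complex, neurons replace the subunit made from Actl6a with that from Actl6b. Actl6b had log2 signals of 8.05, 7.99 and 6.32 on arrays of GFP high, GFP low and GFP negative cells, as bright in GFP low as in GFP high cells. It was 3.33-fold higher than in GFP negative cells, the neuronal subunit gene Ss18l1 was 2.01-fold higher, and Actl6a and Ss18 differed by 0.11 and -0.64. Chromatin genes that act with DNA replication were lower, Uhrf1 by 4.56-fold and Dnmt1 by 2.44-fold. Over the whole chromatin list of 34 genes, 2 were 2-fold or more above and 2 below, a share no larger than the 6.99% and 9.88% of all genes, the median being 0.23. The probe for Rest, the repressor of neuronal genes, was not detected on either array. For Rbfox1, Rbfox3 and Uhrf1, the mean over all probes was 0.78, 0.87 and -1.33.

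Factors that drive neurogenesis had members in both directions. Myt1l, a factor of postmitotic neurons, was 5.96-fold higher in GFP high cells, its relative Myt1 3.52-fold, Sox4 2.95-fold and Pou3f1, a POU factor of motor neuron subsets among others, 4.62-fold. Neurog1, a proneural factor of progenitors, was 3.42-fold lower and Insm1, expressed as progenitors begin to differentiate, 2.85-fold. The nuclear factor I genes Nfix and Nfib, which are tied to glial fate, were at least 2.78-fold and at least 2.80-fold lower. Over 28 genes the median was -0.02, with 7 being 2-fold or more above and 4 lower. The homeodomain gene Gbx2 had log2 signals of 14.52, 13.99 and 12.14 on arrays of GFP high, GFP low and GFP negative cells and was 5.18-fold higher. Log2 differences averaged over probes were 1.02 and -1.0 for Myt1l and Nfix.

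**Figure D4:**
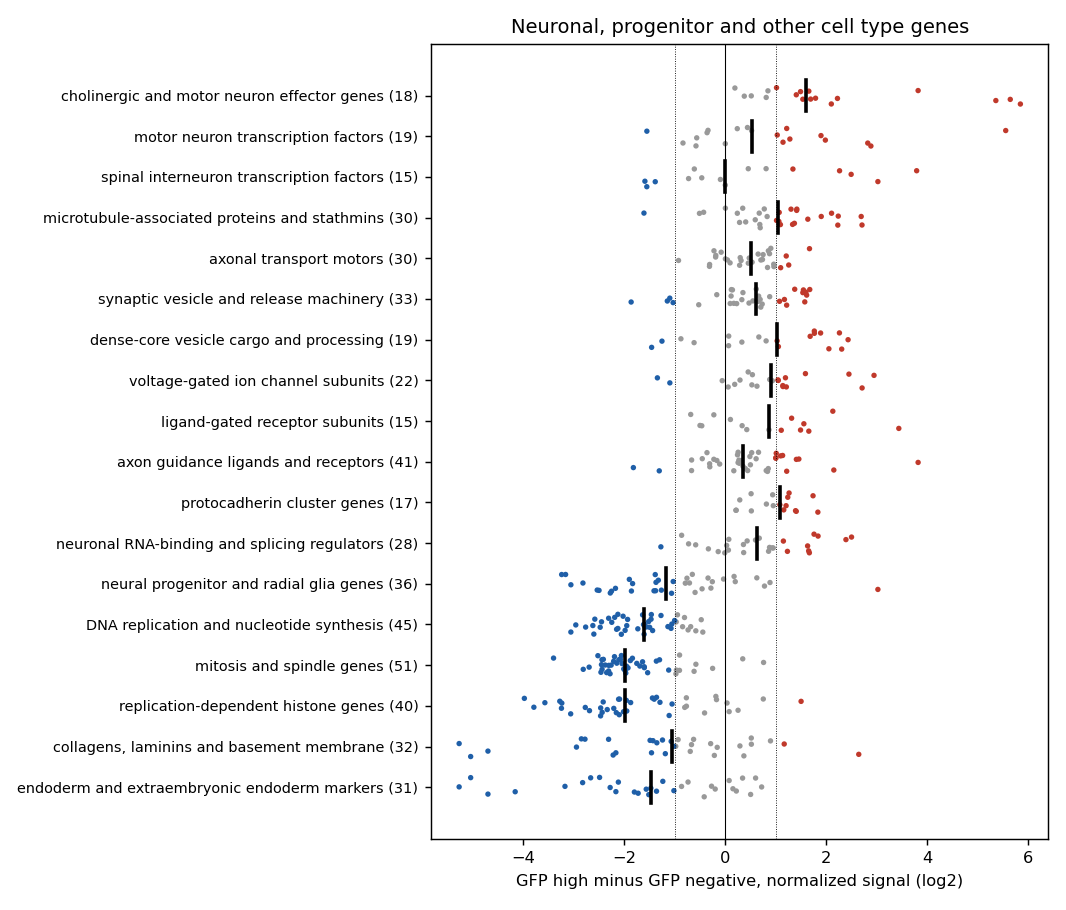
Log2 difference of normalized signal, GFP high minus GFP negative, for each detected gene of 18 gene lists, 1 point per gene, with the number of genes in parentheses, a black bar at the list's median and dotted lines at 2-fold. Undetected probes are plotted at their measured difference. The neuronal lists have medians from 0.00 to 1.60, and the progenitor, replication, mitosis, histone, matrix and endoderm lists have medians of -1.04 or below.

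Genes of progenitors and radial glia were mostly lower in GFP high cells. Of 36 detected members, 20 were 2-fold or more below, 18 by bounds, and 1 higher, the median being -1.16. Foxn4, the factor of V2 progenitors, had log2 signals of 6.50, 9.08 and 9.67 on arrays of GFP high, GFP low and GFP negative cells. Dbx1, the factor of V0 progenitors, had 8.68, 11.22 and 11.50 in that order. Both lay within 1 log2 unit of their GFP negative signal in GFP low cells and far below it in GFP high cells. Foxn4 was 8.95-fold and Dbx1 7.05-fold lower than in GFP negative cells. The growth factor receptor Fgfr3, found on ventricular zone cells, was 5.80-fold lower, the gap junction gene Gja1 8.72-fold, the engulfment receptor Megf10 8.98-fold and the radial glia gene Slc1a3 9.45-fold. The member that was higher, Pax8, is listed here for its progenitor expression and is also an interneuron gene. Averaged over all probes, the log2 difference was -1.84 for Fgfr3.

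Many signalling genes of progenitors were lower as well. Of 32 Wnt pathway genes, 10 were 2-fold or more below and 1 higher, 0 by bounds, the median being -0.62. The ligand Wnt7a had log2 signals of 7.61, 9.74 and 10.86 on arrays of GFP high, GFP low and GFP negative cells, and Wnt7b 7.43, 8.96 and 10.47 in that order. Both were dimmest in GFP high, intermediate in GFP low and brightest in GFP negative cells. Wnt7a was 9.48-fold and Wnt7b 8.25-fold lower in GFP high cells, the repressor Tcf7l1 7.13-fold, its relative Tcf7l2 4.26-fold, the glypican Gpc3 4.85-fold and the receptor Fzd7 4.62-fold. Axin2, a direct target of the pathway, differed by 0.70. In the Notch pathway 5 of 28 genes were 2-fold or more below, led by Hes5 at 8.32-fold, and 2 higher, the ligand Dll3 at 2.53-fold and the Notch-binding membrane protein Dner at 2.36-fold. Nrarp, a target and inhibitor of Notch, was 4.57-fold lower. The list had a median of -0.41. The mean over all probes put Tcf7l1 and Tcf7l2 at -1.53 and -1.20.

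In the Hippo pathway Yap1, the growth coactivator, had log2 signals of 4.52, 6.75 and 8.38 on arrays of GFP high, GFP low and GFP negative cells. It was not detected in GFP high cells and was at least 9.53-fold lower there. Its paralog Wwtr1 differed by -0.27, and the target genes Ccn2, Axl and Ccn1 by -2.13, -1.54 and -0.29. In all 4 of 17 genes were 2-fold or more below and 0 higher, the median being -0.46. Of 34 BMP and TGF-beta genes, 9 were 2-fold or more below, 8 by bounds, and 1 higher, the median being -0.26. Fst, which binds activin, was at least 3.24-fold lower, and Chrd, which binds BMPs, 3.34-fold higher. Of 37 genes of FGF, EGF and trophic signalling, 11 were 2-fold or more above, 9 by bounds, and 8 lower, 7 by bounds, the median being -0.22. The neurotrophin receptor Ntrk2 and the ligand Fgf9 were 3.92-fold and 2.81-fold higher and Fgf15 4.38-fold lower. Of 15 Hedgehog pathway genes, 3 were 2-fold or more below, 2 by bounds, and 0 higher, the median being -0.48, and the receptor Ptch1, itself a target, differed by -0.48. For Ntrk2, the mean over all probes was 0.64.

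Replication and mitosis genes were lower almost throughout. All 45 detected replication and nucleotide synthesis genes had a difference below 0, 41 of them detected on both arrays and the others in GFP negative cells alone, and 36 were 2-fold or more below, 35 by bounds, the median being -1.61. Of 51 detected mitosis genes, 42 were 2-fold or more below and 0 higher, the median being -1.98. The replication initiation factor Mcm10 had log2 signals of 7.94, 9.87 and 10.90 on arrays of GFP high, GFP low and GFP negative cells, and the origin factor Cdc45 7.22, 8.87 and 9.85 in that order. GFP low cells were closer to GFP negative than to GFP high cells for both. Mcm10 was 7.78-fold lower, Cdc45 6.16-fold, the checkpoint adaptor Clspn 6.80-fold and the thymidine kinase Tk1 8.33-fold. Other detected probes gave -2.65 to -0.69 for Clspn and -1.17 for Tk1. The uracil glycosylase Ung was 6.72-fold lower and the helicase Brip1 6.40-fold. Bub3, a spindle checkpoint protein that also takes part in other complexes, went the other way at a difference of 0.76. Log2 differences averaged over probes were -1.43 and -1.20 for Cdc45 and Ung.

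Many mitotic genes share promoter elements, a CCAAT box (letters CCAAT), which the activator NF-Y binds, and a cell cycle homology region (letters TTTGAA), through which repressor complexes act outside the cycle. RefSeq promoter windows of build GRCm38.p6, 250 bases before to 50 after a gene's start and 1 window per gene, were searched for these letters on both strands. Of 43 detected mitosis genes with a window, 22 held both motifs, or 51.2%, against 5.05% of 7025 windows of all genes tested. The letters of the motifs, both strands included, can share at most 1 base. The shares with a CCAAT match, whatever the other motif, were 67.4% of mitosis genes and 2812 of those 7025 windows, and with a TTTGAA match 60.5% of mitosis genes and 11.5% of all. Among replication genes 10.5% held both, and among 36 replication-dependent histone genes 38.9%, so the pair of motifs was not particular to mitosis genes. Among all genes 2-fold or more below 11.1% held both, against 2.80% of those 2-fold or more above. A match of letters is a description of the window, not a bound site. The windows of the lowest mitosis genes that hold both motifs are shown because they carry this pattern, with the motifs, or their reverse complements ATTGG and TTCAAA, in capitals: Aspm at chr1:139454523-139454822, plus strand, Kif23 at chr9:61946750-61947049, minus strand, and Cdk1 at chr10:69352863-69353162, minus strand, each read along its own strand.
Aspm: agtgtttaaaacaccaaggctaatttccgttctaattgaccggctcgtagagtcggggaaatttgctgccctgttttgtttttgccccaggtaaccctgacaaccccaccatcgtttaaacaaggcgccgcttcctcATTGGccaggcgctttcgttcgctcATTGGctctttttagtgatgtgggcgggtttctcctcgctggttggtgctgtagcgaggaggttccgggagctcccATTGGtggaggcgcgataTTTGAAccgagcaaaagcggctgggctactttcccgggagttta
Kif23: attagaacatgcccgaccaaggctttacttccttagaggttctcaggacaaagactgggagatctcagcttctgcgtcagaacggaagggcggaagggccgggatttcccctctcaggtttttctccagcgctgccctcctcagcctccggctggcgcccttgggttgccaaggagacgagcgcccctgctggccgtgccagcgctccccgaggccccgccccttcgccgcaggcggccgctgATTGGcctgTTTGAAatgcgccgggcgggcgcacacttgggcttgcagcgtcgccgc
Cdk1: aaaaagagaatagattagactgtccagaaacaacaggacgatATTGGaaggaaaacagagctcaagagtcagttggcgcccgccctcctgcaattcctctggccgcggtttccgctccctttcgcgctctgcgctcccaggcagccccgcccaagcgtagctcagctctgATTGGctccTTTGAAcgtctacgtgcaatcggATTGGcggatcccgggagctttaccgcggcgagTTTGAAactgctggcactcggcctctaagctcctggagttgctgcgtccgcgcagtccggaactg

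In each window a TTTGAA follows an ATTGG at a short distance just before or around the start. Cdk1, the kinase that starts mitosis, had log2 signals of 6.72, 8.60 and 9.16 on arrays of GFP high, GFP low and GFP negative cells. Kif23, a cytokinesis kinesin, had 6.54, 8.44 and 8.99 in that order, and Aspm, a spindle pole protein, had 4.52, 6.20 and 7.22 in that order. For each of these GFP low cells lay nearer to GFP negative than to GFP high cells. The differences were 5.43-fold lower for Cdk1, 5.47-fold for Kif23 and at least 4.26-fold for Aspm, which was not detected in GFP high cells. Averaged over all probes, the log2 difference was -0.86 for Cdk1.

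Regulators of the cycle had members in both directions. Of 39 cyclins, inhibitors and exit genes, 13 were 2-fold or more below, 12 by bounds, and 4 higher, while 22 stayed under 2-fold, the median being -0.47. The lower genes included the activator E2f2 at 4.18-fold, the cyclin genes Ccnd1 and Ccne2 at 3.62-fold and 3.57-fold, and the pocket protein Rbl1 at 3.57-fold. The higher genes were the inhibitors Cdkn1c and Cdkn1a at 2.43-fold and 2.22-fold, the Myc antagonist Mxd4 at 2.30-fold, and Cdk5r1, which activates the neuronal kinase Cdk5, at 4.31-fold. Cdkn1c had log2 signals of 13.73, 13.68 and 12.45 on arrays of GFP high, GFP low and GFP negative cells, as bright in GFP low as in GFP high cells. The mean over all probes put E2f2 at -1.41.

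Replication-dependent histone genes, whose transcripts are made in S phase, were lower in 29 of 40 detected cases at 2-fold, 26 by bounds, and higher in 1, the median being -1.99. H2ac11 had log2 signals of 6.82, 9.06 and 10.80 on arrays of GFP high, GFP low and GFP negative cells, and its head-to-head neighbour H2bc11 6.60, 7.30 and 8.72 in that order. Both signals were highest in GFP negative cells and lowest in GFP high cells. H2ac11 was 15.8-fold and H2bc11 4.32-fold lower. H1f2, a linker histone, was the higher member at 2.84-fold. These genes are near-identical copies, and their probes cannot be taken as separate. The window of H2ac11, chr13:22042900-22043199, minus strand, is shown because it lies between this pair, whose starts are 249 bases apart, with CCAAT or ATTGG in capitals at 5 places.
H2ac11: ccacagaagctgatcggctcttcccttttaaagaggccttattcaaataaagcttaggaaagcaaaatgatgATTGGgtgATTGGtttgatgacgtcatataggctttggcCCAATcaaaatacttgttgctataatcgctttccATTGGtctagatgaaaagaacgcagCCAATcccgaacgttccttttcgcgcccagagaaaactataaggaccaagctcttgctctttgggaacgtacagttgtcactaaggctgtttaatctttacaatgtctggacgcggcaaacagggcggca

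Of 36 detected histone genes with a window, 80.6% held a CCAAT match and 38.9% a TTTGAA match. The H2ac11 window holds 1 TTTGAA match, which is not in capitals. Head-to-head neighbours were then looked at over the whole comparison, as gene pairs on opposite strands whose windows overlap. In 313 such pairs with both genes detected, 8 pairs had both members 2-fold or more below, 0 had both members 2-fold or more above, 0 had members at least 2-fold in opposite directions, and 64 had 1 such member. Beside these counts, 9.88% of all genes tested were 2-fold or more below and 6.99% above, and whether pair members differ together was not tested. Of the 8 pairs, 4 were histone pairs, whose probes cannot be taken as separate. The others were Col4a1 with Col4a2, Tcf19 with Cchcr1, Xrcc3 with Zfyve21, and Dbi with 3110009E18Rik. Tcf19, an S-phase transcription factor gene, was 6.04-fold lower and Cchcr1, a centrosome gene, 4.86-fold. For Cchcr1, the mean over all probes was -0.85, and by that measure the pair is not 2-fold lower in both members.

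Genes known from non-neural cells made up another group of lower genes. Col4a1 and Col4a2 encode the collagen chains that form the sheet of basement membranes, and they start back to back from 1 promoter. Col4a1 had log2 signals of 5.28, 6.29 and 10.32 on arrays of GFP high, GFP low and GFP negative cells, and Col4a2 4.56, 6.42 and 9.84 in that order. Both were bright only in GFP negative cells, where they stood 33.0-fold and at least 26.2-fold above GFP high cells. The Col4a2 window, chr8:11312555-11312854, plus strand, is shown for this shared start, with the 78 bases that it shares with the window of Col4a1 in capitals.
Col4a2: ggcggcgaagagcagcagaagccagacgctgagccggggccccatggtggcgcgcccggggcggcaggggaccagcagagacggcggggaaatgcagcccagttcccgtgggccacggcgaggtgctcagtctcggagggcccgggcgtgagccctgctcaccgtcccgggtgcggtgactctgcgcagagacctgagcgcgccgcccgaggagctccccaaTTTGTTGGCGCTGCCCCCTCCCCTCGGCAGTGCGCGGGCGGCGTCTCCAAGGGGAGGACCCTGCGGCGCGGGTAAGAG

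Of 32 detected matrix and basement membrane genes, 17 were 2-fold or more below GFP negative cells, 14 by bounds, and 2 higher, 1 by bounds, the median being -1.04, or -0.69 by bounds. The largest difference above 0 was 2.65. Vcan, the matrix proteoglycan gene given above, also went the other way. The basement membrane linkers Nid2 and Nid1 were at least 5.19-fold and at least 2.03-fold lower, the laminin chain Lamc1 4.96-fold, and the collagen gene Col18a1 6.86-fold. Of 27 integrin and adhesion site genes, 6 were lower and 2 higher, the median being -0.11. S100a11, a calcium-binding protein, was 5.66-fold lower and the neuronal calponin relative Tagln3 3.36-fold higher. Its probes averaged, Col18a1 had a log2 difference of -1.49.

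Markers of other cell types that the negative gate could hold are given beside these genes. Of 45 endoderm and extraembryonic endoderm markers with a probe, 27 were detected in GFP negative and 16 in GFP high cells, and their summed background-corrected signal was 11983 against 3755, with 4583 in GFP low cells. The endoderm adaptor gene Dab2 had log2 signals of 4.62, 5.80 and 8.78 on arrays of GFP high, GFP low and GFP negative cells, and the endoderm factor Gata6 4.47, 5.01 and 7.65 in that order. Neither was detected in GFP high cells, and Gata6 was not detected in GFP low cells either. Averaging the probes of Dab2 gave a log2 difference of -2.59. The probes for Gata4, Foxa2, Afp and Alb, other defining endoderm genes, were not detected on either array. The list holds Col4a1, Col4a2, Sparc and Lama1, which are also matrix genes. Their signals are part of the sums, so the sums are not of endoderm genes alone. In all 19 of its 31 detected members were 2-fold or more below, 14 by bounds, and 0 higher, the median being -1.47, or -0.81 by bounds.

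Of 28 erythroid and blood markers with a probe, 10 were detected in GFP negative and 6 in GFP high cells. The embryonic globin Hbb-y had log2 signals of 4.34, 5.14 and 9.02 on arrays of GFP high, GFP low and GFP negative cells, and the alpha globin Hba-a1 4.36, 4.57 and 8.25 in that order. Globin signals were bright only in GFP negative cells, and cross-hybridisation among globin probes was not checked. The GFP negative signals were at least 8.74-fold higher for Hba-a1 and at least 5.46-fold higher for the embryonic globin Hbb-bh1. The erythroid regulators Gata1 and Klf1 were not detected on either array, and Lmo2, which is also a neuronal gene, was 4.67-fold higher in GFP high cells. The summed signal of the list was 2406, 2705 and 3453 in GFP high, low and negative cells. Of 11 detected genes, 6 were 2-fold or more below, beside 9.88% of all genes tested. In the other direction 2 were higher, beside 6.99%, with log2 differences up to 2.24. The median was -1.49, but over the 5 detected on both arrays it was 0.09.

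Of 27 fibroblast, feeder and mesenchyme markers with a probe, 8 were detected in GFP negative and 4 in GFP high cells, with a summed signal of 4818 against 2510 and 3495 in GFP low cells. Col1a1, Col1a2, Col3a1 and Pdgfrb, defining genes of fibroblasts, were not detected on either array. Of 9 detected members 4 were 2-fold or more below, the median being -0.71. Of 25 endothelial markers, 8 were detected in GFP negative and 4 in GFP high cells, with summed signals of 1816 and 926 and 1323 in GFP low cells, and a median of -0.91, while Pecam1, Cdh5 and Kdr were not detected on either array. Glial markers had summed signals of 4653, 4079 and 6866 in GFP high, low and negative cells, with 5 of 13 being 2-fold or more below, 3 by bounds, 2 higher and a median of -0.27, or 0.20 over those detected on both arrays, and Gfap, Aqp4 and Mog were not detected. Pmp22, a myelin protein gene that is also expressed outside glia, was the highest of them at 4.95-fold. Muscle and heart markers were near background, with 5 of 20 detected, 0 being 2-fold or more above, 0 lower, and a median of 0.06. Of 17 pluripotency genes, 6 were 2-fold or more below, 5 by bounds, and 1 higher, the median being -0.44, and Nanog and Zfp42 were not detected. The part of other cell types in these differences was not tested.

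Genes used by most cells also differed, by small amounts shared by many subunits of a complex. Of 70 respiratory chain subunits, 55 had a difference below 0, 12 were 2-fold or more below GFP negative cells and 0 higher, the median being -0.61 beside 0.02 over all genes. Ndufa3, a subunit of complex I, had log2 signals of 9.92, 10.42 and 11.46 on arrays of GFP high, GFP low and GFP negative cells, and Uqcr10, of complex III, 12.35, 12.90 and 13.62 in that order. The signals stepped up from GFP high through GFP low to GFP negative cells. Ndufa3 was 2.91-fold and Uqcr10 2.41-fold lower, the latter with a second probe at -1.22. The largest subunit difference was that of Cox6a2, a form of heart and muscle, at least 5.54-fold lower and not detected in GFP high cells. The subunits above 0, such as Atp5pb at 0.48 and Ndufa9 at 0.39, stayed under 2-fold. Cytosolic ribosomal protein genes had a median of -0.50, with 45 of 57 below 0 and 8 being 2-fold or more below, led by Rps25 at 2.48-fold, Rps15 at 2.48-fold and Rps10 at 2.29-fold. Mitochondrial ribosomal protein genes had a median of -0.31, with 53 of 70 below 0, 6 being 2-fold or more below and 0 higher. Among all genes 9.88% were 2-fold or more below and 6.99% above, so that 6 of 70 is no more than the share of all genes.

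Other machinery had medians above 0, while counts at 2-fold were often near the 6.99% higher and 9.88% lower of all genes. Of 32 proteasome subunits, 0 were 2-fold or more above or below, the median being 0.15. Of 17 genes of the vacuolar proton pump, which acidifies vesicles, 16 were above 0, the median being 0.53, and 1 was 2-fold or more above, Atp6v0d1 at 2.33-fold. Of 22 cholesterol synthesis and uptake genes, 19 were above 0, 3 were 2-fold or more above and 0 lower, the median being 0.66. Insig2, a brake on the pathway, was 2.83-fold higher, and the sterol enzymes Nsdhl and Hsd17b7 2.63-fold and 2.06-fold. Protein folding genes had a median of 0.38, with 2 of 28 being 2-fold or more above, about the share of all genes, and 0 lower. The largest of these differences was that of the calcium-binding chaperone Calr at 4.04-fold. Rab GTPase genes had a median of 0.31, with 8 of 41 being 2-fold or more above and 2 lower, where Rab6b, a neuronal Golgi form, was 2.37-fold higher and Rab34, a cilium gene, 2.10-fold lower. Averaged over all probes, the log2 difference was 0.72 for Insig2.

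**Figure D5:**
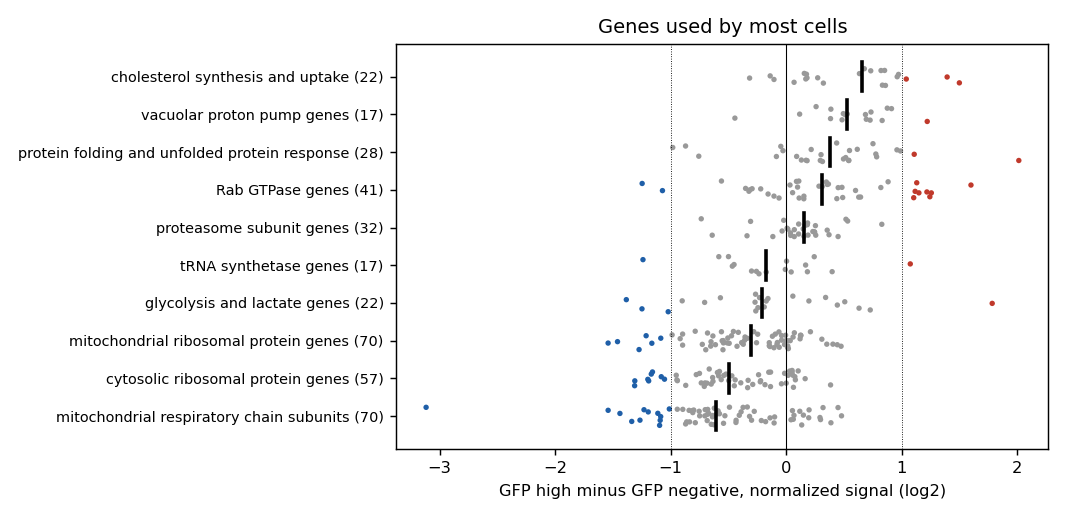
Log2 difference of normalized signal, GFP high minus GFP negative, for each detected gene of 10 lists of genes used by most cells, 1 point per gene, with the number of genes in parentheses, a black bar at the median and dotted lines at 2-fold. Medians run from 0.66 for cholesterol genes to -0.61 for respiratory chain subunits, and few genes pass 2-fold.

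Glycolysis genes had a median of -0.21, with the neuronal enolase Eno2 3.44-fold higher and the glucose transporter Slc2a1 2.38-fold lower. The tRNA synthetase median was -0.17, with Yars 2.11-fold higher and Vars 2.36-fold lower. Of 154 solute carriers, 14 were 2-fold or more above, 12 by bounds, and 13 lower, near the 6.99% and 9.88% of all genes, the median being -0.03. The lower ones included the cystine transporter Slc7a11 at 5.65-fold and Slc22a23 at 4.77-fold. Of 179 zinc finger protein genes named Zfp, 3 were higher and 5 lower, beside 6.99% and 9.88% of all genes, the median being 0.17. Imprinted genes had a median of 0.15, with 3 of 21 being 2-fold or more above and 1 lower, where the neuronal genes Snrpn and Ndn were 2.15-fold and 2.06-fold higher and Peg3 2.29-fold lower. Antigen presentation and interferon genes had a median of -0.32, with 4 of 20 being 2-fold or more below, 3 by bounds, and 0 higher. Ifitm3, an interferon-induced membrane protein, had log2 signals of 7.12, 8.77 and 10.06 on arrays of GFP high, GFP low and GFP negative cells and was 7.70-fold lower. The mean over all probes put Slc22a23 at -1.16.

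Positional and retinoid genes had medians near 0. Of 29 Hox genes and cofactors, 3 were 2-fold or more above and 0 lower, the median being 0.23, and 2 of the higher genes were the cofactors Pbx3 at 3.02-fold and Meis3 at 2.73-fold. Retinoic acid pathway genes had a median of 0.04, with 3 of 13 lower, 2 by bounds, and 1 higher. Immediate early genes had a median of 0.61, with 5 of 20 being 2-fold or more above and 1 lower, among them Jund at 2.14-fold and Egr4 at 2.02-fold. Tubulins had a median of 0.33, claudins of 0.04 and kinesins of -0.33. Intermediate filaments had a median of 0.19, or -0.20 over genes detected on both arrays, and neurotransmitter genes other than cholinergic ones 0.45, or -0.24.

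The most different genes of the comparison also included signalling, trafficking and secreted products. The guanine exchange factor Rapgef5 had log2 signals of 8.71, 8.02 and 5.88 on arrays of GFP high, GFP low and GFP negative cells, the G protein subunit Gng2 11.27, 9.25 and 8.52 in that order, and the sorting nexin Snx18 11.87, 9.89 and 9.57 in that order. Gng2 and Snx18 were set apart on the GFP high array, with GFP low cells near GFP negative cells, while Rapgef5 was also bright in GFP low cells. The folds were 7.12-fold, 6.71-fold and 4.94-fold. Uts2b, a peptide of the urotensin family, had 7.59, 4.88 and 4.28 in that order and was detected in GFP high cells alone of these gates, at least 5.46-fold above GFP negative cells. The extracellular genes Crtac1, Cbln1 and Olfm1 were 6.69-fold, 5.46-fold and 4.84-fold higher and the angiopoietin gene Angpt1 at least 4.89-fold. In the other direction the acetate enzyme Acss1 was 9.18-fold lower, the heparan sulfate enzyme Hs3st1 7.62-fold, the adhesion gene Igsf11 7.03-fold, the FGF-binding gene Fgfbp3 6.87-fold and the phosphatase Alpl 6.45-fold. Hs3st1 had 6.29, 6.38 and 9.22 in that order, so that GFP low cells lay with GFP high cells. For Angpt1, the mean over all probes was 1.36.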

How the data were processed

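Total RNA of sorted cells was labelled with biotin and hybridised to Illumina bead arrays, 1 per gate. The authors deposited non-normalized signal intensity and a detection p-value for 25697 probes per array, per the file headers, and GenomeStudio is named in the submitters' processing notes. The authors' value table was used as an alternative only. It holds intensity on a linear scale with a floor of 10, at which 47.5% of its values lie, and how it was normalized is not given in the sources used here. Array medians there were 12.6, 12.5 and 12.5, and its values ran with the array signals (r of 0.991 to 0.994 across 5310 probes above 300).

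Here, with R 4.3.3 and limma 3.58.1, background was estimated from the detection p-values, removed by normexp with an offset of 16, and all 3 arrays were quantile normalized and set on the log2 scale. The offset draws folds of dim genes toward 1. The array annotation gave 23978 probes 1 gene symbol and 1719 none; 23962 probes matched RefSeq by gene ID. A gene takes the probe brightest over the arrays, and 9 genes have an undetected brightest probe and another that was detected. Detection p-values step by 1 in 798. Mean background before correction was 93.4 to 96.1. The number of arrays limits the precision, and no sequencing depth applies. List sums are over background-corrected signal. Python 3.11.15, numpy 2.4.6 and pandas 2.3.3 made the tables. The normalization and the differences from it were checked on simulated data, where a small set of probes well above background was changed on the GFP high array. That check does not cover dim genes or changes as widespread as those seen here.

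The 58 gene lists and the members were chosen with earlier results of these data known. Named genes are the markers, the 40 highest and 40 lowest genes detected on both arrays, the 25 largest bounds on each side, and in each list the 6 largest on each side, the one nearest 0, those against the median, and all members of lists of up to 12 detected genes. Actl6a, Cdk1, Kif24, Lama1, Lamc1, Nid1, Ptch1, Wwtr1 and the genes of the head-to-head pairs were named outside this rule and were chosen after their values were seen. The alternatives were the background step, offset, normalization, detection rule, probe rule, bounds and the authors' table.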

Additional observations from a re-analysis of the deposited data

How the results depend on the processing

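No paired analysis was possible because each group has 1 array, and for the same reason no replicate could be left out. The 10 alternatives were run on the 2 counts of genes and on the medians of 58 lists, and a median was taken as moved when it shifted by more than the SD of 1 probe, 0.33. They were also run on 217 named genes, of which 202 differed by 2-fold or more. Without background correction 41 of these calls were lost. An offset of 50 lost 21, the mean of probes 21, median scaling 5 and bounds 4. Values of 85, 41, 41, 0 and 13 named genes moved by over 1.5-fold under these in turn, and of 33 with the authors' value table. With the authors' table, and with GFP low left out of the normalization, 0 calls were lost. The other detection rules leave a gene's value unchanged, so no call could be lost under them. Detection on both arrays kept 190 of the 217 genes, and those it left out were not counted as lost. Under the authors' table Tuba1b had a difference of 0.54 in place of -0.04. Scaling to the median in place of quantiles gave 518 higher and 904 lower genes, leaving GFP low out of the normalization gave 597 and 841, and neither moved a median. Without background correction 258 genes were higher and 437 lower, and the moved medians were -0.290 for Wnt pathway genes, 1.06 for cholinergic genes, -0.410 for matrix genes, 0.616 for dense-core vesicle genes, -0.565 for endoderm markers, -0.468 for endothelial markers, -0.676 for erythroid markers, 0.483 for ligand-gated receptors, -1.49 for mitosis genes, 0.321 for adhesion genes, 0.461 for clustered protocadherins, -1.16 for histone genes and 0.456 for voltage-gated channels. With an offset of 50 the counts were 356 and 567, and the moved medians were -0.595 for matrix genes, -0.765 for endoderm markers, -0.976 for erythroid markers, 0.704 for clustered protocadherins and -1.51 for histone genes. Both settings draw dim genes toward no difference by construction. With no filter on detection, which adds probes at background, the counts stayed at 602 and 851, and the moved medians were 0.0955 for GABA, glycine, glutamate and monoamine genes, -0.123 for Wnt pathway genes, 1.02 for cholinergic genes, -0.0976 for matrix genes, 0.254 for dense-core vesicle genes, -0.533 for endoderm markers, -0.188 for endothelial markers, -0.0530 for erythroid markers, -0.0387 for fibroblast markers, 0.0466 for ligand-gated receptors, 0.310 for adhesion genes, -0.399 for progenitor genes, 0.179 for RNA-binding genes, 0.212 for clustered protocadherins, -1.36 for histone genes, 0.194 for synaptic genes and 0.151 for voltage-gated channels. At a detection p under 0.05 the moved medians were -0.0503 for classical cadherins, -0.667 for matrix genes, -0.424 for endothelial markers, -0.236 for erythroid markers, -0.197 for intermediate filaments, 0.316 for ligand-gated receptors and 0.540 for voltage-gated channels, so that the classical cadherin and intermediate filament medians changed sign. With detection on both arrays 476 genes were higher and 652 lower, and the moved medians were -0.238 for GABA, glycine, glutamate and monoamine genes, -0.888 for endoderm markers, -0.544 for endothelial markers, 0.0867 for erythroid markers, -2.22 for fibroblast markers, 0.200 for glial markers, -0.197 for intermediate filaments and 0.872 for motor neuron transcription factors, so that the erythroid, glial, intermediate filament and neurotransmitter medians changed sign. The mean over probes gave 471 and 713 genes and moved medians of -0.730 for erythroid markers, 0.464 for ligand-gated receptors and 0.561 for voltage-gated channels. Bounds for undetected genes gave counts of 526 and 745 and the moved medians were 0.0522 for GABA, glycine, glutamate and monoamine genes, -0.686 for matrix genes and -0.813 for endoderm markers. The authors' value table gave 903 and 1187 genes and moved medians of 1.01 for GABA, glycine, glutamate and monoamine genes, -1.59 for matrix genes, -2.07 for endoderm markers and 0.944 for motor neuron transcription factors. The part of each step in these shifts was not tested beyond this, and signal over background limits every fold of a gene near 5.13.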

Other observations

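Gene length in the genome was set beside the differences as a description. Genes with a span in the RefSeq annotation were ordered by span and cut into 5 parts of 1722 genes. In the shortest part, whose median span was 4.14 kb, 112 genes stood 2-fold or more above GFP negative cells and 223 below. In the longest part, whose median span was 111.1 kb, the numbers were 184 and 171. The 3 parts between them had 113, 87 and 106 genes above and 154, 138 and 164 below, with no steady trend, and the median log2 difference stayed between -0.03 and 0.05 in all 5. The list medians did not follow span alone. Respiratory chain genes, of a median span of 7.21 kb, had a median log2 difference of -0.61, whereas the clustered protocadherins, of 4.71 kb, had 1.08. Cytosolic ribosomal protein genes spanned 3.35 kb and had -0.50, and vacuolar proton pump genes spanned 24.98 kb and had 0.53.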
